A study of Homo sapiens with 18 samples.

Results

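HMC3 cells, an established human line described as microglial, were given oxidized low-density lipoprotein (oxLDL) for 24 h, and the transcripts compared here are those after 100 µg/ml against those after 50 µg/ml, the last doubling of the dose. Each dose had 3 libraries, so the comparison rests on 6 of the 18 libraries of the series. It covers 11813 of the 13992 listed genes, chosen by a level of at least 0.5 FPKM (fragments scaled by transcript length and library total) in at least 3 of these 6 libraries, and 2179 listed genes fell below that level. All groups were wild type cells grown in MEM with 10% fetal bovine serum, and the groups differed by dose alone, with 3 libraries each at 0, 1, 2.5, 10, 50 and 100 µg/ml. The series is concerned with CD36, lipid accumulation in reactive microglia and an Nlrp3 to IL-1β pathway in retinal degeneration. The question here is which responses to the high doses went on with the further dose and which levelled off.

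OxLDL is taken up through scavenger receptors and delivers cholesterol, oxidized phospholipids and fatty acids to the cell. Electrophilic lipids release the transcription factor NRF2 from its inhibitor KEAP1, and NRF2 then binds antioxidant response elements in genes for glutathione and thioredoxin metabolism, heme breakdown and quinone reduction. Cholesterol that reaches the endoplasmic reticulum holds the factor SREBP2 in its inactive form, which lowers the enzymes of cholesterol synthesis, and fatty acids act on PPAR factors that control genes of lipid storage and oxidation. These are separate sensors, so their target genes need not follow the same course with dose.

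Recovered depths at the compared doses were 18996131 to 32871998 reads at 50 µg/ml and 13919066 to 37382244 at 100 µg/ml, and the shallowest and the deepest library of the series both belong to 100 µg/ml. Separate cultures for the libraries of 1 dose are not stated in the labels, so p-values measure only how these libraries vary, which may be technical variation. Of 13 markers of microglia and macrophages 2 were listed, CD68 (15.26 FPKM at 50 and 14.97 at 100 µg/ml) and CD14 (0.531 and 0.630), and the others, among them AIF1, CX3CR1, P2RY12, TMEM119 and CSF1R, were not in the list of genes. Of 8 markers of pericytes and fibroblasts 7 were listed, and their summed level was 592 to 622 FPKM in the libraries at 50 and 528 to 594 at 100 µg/ml, most of it COL1A1. In RNA from whole cultures fewer cells of a type and less RNA per cell cannot be told apart.

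Few transcripts separated the 2 doses. In a limma fit on log2(FPKM + 0.5) over all 18 libraries, 28 genes were called higher at 100 than at 50 µg/ml (0.237% of genes tested) and 8 lower (0.0677%), with calls made at a Benjamini-Hochberg adjusted p under 0.05. The rises were led by targets of NRF2 (13 of the 28) and by lipid, iron, lysosomal and cytokine genes, among them ANGPTL4, HMOX1, OSGIN1, SLC7A11 and IL11, and the falls included the matrix protein gene TINAGL1, the replication helicase subunit MCM7 and the kinesin KIF20A. The median size of a called step was 0.295 on the log2 scale, 4 called steps reached 0.5 and 1, that of ANGPTL4, reached 1. Over all genes tested the median absolute step was 0.0471 and the median standard error (SE) 0.0618. At an unadjusted p under 0.05 there were 523 genes higher (4.43%) and 471 lower (3.99%). In all 36 called genes the 3 libraries of 1 dose lay outside the range of the other dose, which was so upward in 6.87% and downward in 8.31% of all genes. Folds below are log2 differences on this scale with the limma SE, on which changes at low FPKM come out too small, and levels are FPKM as mean ± SD (n = 3).

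The responding genes were defined without the step itself. A high-dose response is the mean of 50 and 100 µg/ml minus 0 µg/ml; with 3 libraries a dose this contrast is uncorrelated with the difference between 100 and 50, so that choosing genes by it pushes the step neither up nor down. It called 1014 genes higher (8.58%) and 939 lower (7.95%). Among the 1014 the step pointed further up in 819 (80.8%, against 46.9% of all genes tested), with a median of 0.05, and among the 939 it pointed further down in 706 (75.2%, against 53.1%), with a median of -0.05. Had both steps of 50 µg/ml been equal on the log2 scale, the step would come to 0.667 of the high-dose response, and the medians were 0.277 for rising and 0.237 for falling genes. Choosing genes by a called high-dose response favours overestimates of that response, which lowers these ratios by an amount that was not measured. Most single genes could not be placed: 26 rising and 8 falling responses continued, meaning that the step was called in the direction of the response, 1 turned back, and 28 rising and 80 falling responses are termed levelled, because the step was not called and its 95% interval ended below 0.3 of the response. The remaining 960 and 850 met none of these rules and are termed undetermined. Among them, 193 and 158 had an unadjusted limma p under 0.05 in the direction of the response. The levelled genes mostly had a step against the direction of the response, with sizes given below. Of the 15 genes whose high-dose rise exceeded 1, 8 continued, 0 levelled and 7 were undetermined, and all 5 genes whose fall exceeded 1 were undetermined. The 2 groups of levelled genes differ in stability: leaving out 1 library at a time gave 12 (without library 1 at 100 µg/ml), 15 (without library 3 at 50), 18 (without library 1 at 0) and 64 (without library 1 at 50) levelled rises, and 47 (without library 2 at 100), 50 (without library 1 at 0) and 51 (without library 1 at 100) levelled falls.

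**Figure D1:**
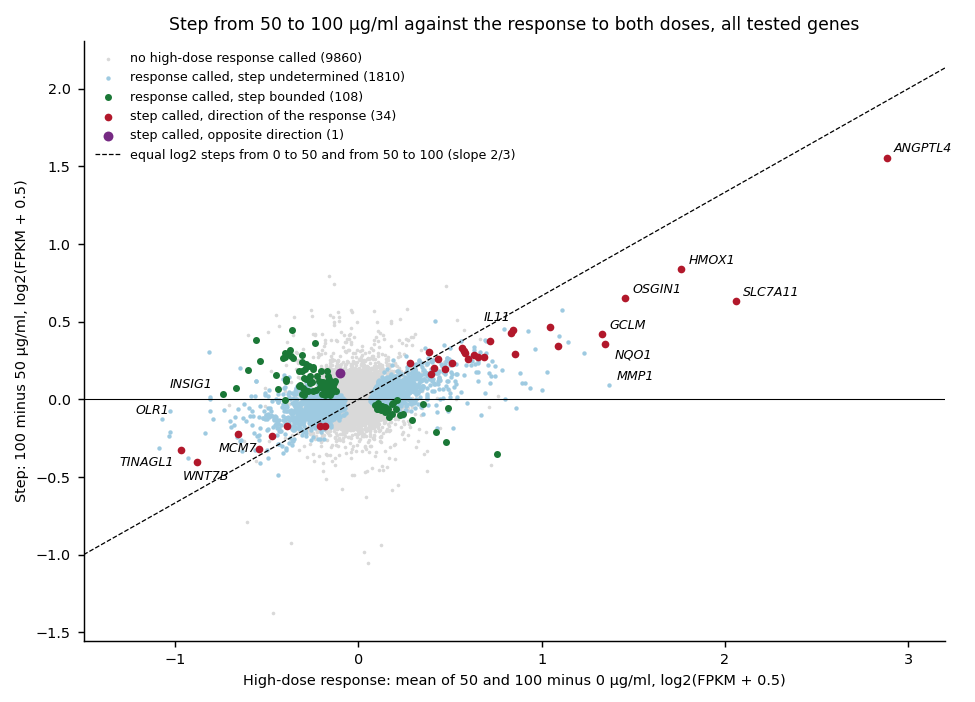
The log2 difference between 100 and 50 µg/ml (vertical) against the high-dose response (horizontal) for the 11813 genes tested, each dot a gene, coloured by class, on log2(FPKM + 0.5). Called steps lie in the direction of the response in 34 genes, and 30 of these lie nearer to 0 than the dashed line on which both steps of 50 µg/ml are equal; the 108 bounded genes, termed levelled in the text, lie mostly on the other side of 0 from their response; GABARAPL1, called over the step without a called response, is among the grey dots.

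NRF2 targets gave the largest group of continued rises. Of 33 tested targets 13 rose over the step (39.4%, against 0.237% of all genes) and 0 fell, 29 lay above 0 and the median step was 0.22. This list was written with earlier results of these data known, and is not independent evidence of direction. A high-dose rise was called in 27 of the 33, against 8.58% of all genes tested. All 27 had a further upward step, against 80.8% of all genes with such a rise. Of the 27, 13 continued, against 2.56% of all rising responses, 0 levelled and 14 were undetermined. Promoter windows from RefSeq (GRCh38.p14, 250 bases before to 50 after the start) were held for 10 of the 13 called targets, and the core letters of the antioxidant response element, TGACNNNGC on either strand, occurred in 3 of them. The 150 bases before the start of these 3 genes are shown 5′ to 3′ on the gene's strand, with the core in capitals where it lies wholly before the start, to place the letters that NRF2 is known to bind.
TXNRD1 (chromosome 12, + strand, chr12:104215629-104215778): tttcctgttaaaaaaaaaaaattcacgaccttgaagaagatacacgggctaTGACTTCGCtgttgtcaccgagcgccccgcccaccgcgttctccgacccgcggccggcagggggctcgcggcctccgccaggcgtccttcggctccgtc
GCLM (chromosome 1, - strand, chr1:93909431-93909580): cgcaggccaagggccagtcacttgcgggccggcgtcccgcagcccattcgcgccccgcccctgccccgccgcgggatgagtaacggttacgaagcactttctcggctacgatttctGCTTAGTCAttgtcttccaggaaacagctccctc
SLC3A2 (chromosome 11, + strand, chr11:62881549-62881698): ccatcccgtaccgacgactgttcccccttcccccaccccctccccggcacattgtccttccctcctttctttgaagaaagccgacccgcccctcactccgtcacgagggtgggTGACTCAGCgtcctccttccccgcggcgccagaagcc
In TXNRD1 the core begins 99 bases before the start, in SLC3A2 37 before and in GCLM 34 before, the last on the opposite strand, so that it reads as GCTTAGTCA here. A further match in TXNRD1 begins 8 bases before the start and runs across it.

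The same letters were not particular to the genes that rose. The core occurred in 7 of the 23 genes called higher that had a window (30.4%), in 5 of the 14 NRF2 targets tested and not called (35.7%) and in 15.4% of the 9301 windows of all genes tested, and in 0 of the 5 windows of genes called lower. The lysosomal protease gene CTSL, outside the NRF2 list, held it 23 bases before its start, and ODC1 held it across its start, and GLA and PPIF held it wholly after theirs. AP-1 letters, TGANTCA, which overlap the core where its free letters begin with TCA, occurred in 4 of the 23 (17.4%) and in 4.45% of all windows. The heat shock element, searched as GAA, TTC and GAA with 2 free letters between neighbours, was in no window of a called gene and in 0.323% of all windows. A match is a string of letters in these windows and does not show a bound site.

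Genes of cystine uptake and glutathione synthesis were the first subgroup. SLC7A11, the transport subunit that exchanges glutamate for cystine (GRCh38.p14 chromosome 4, 138164097 to 138242349), stood at 5.38, 5.64 and 6.15 FPKM in the libraries at 50 µg/ml and at 8.45, 9.26 and 9.75 at 100, where untreated libraries had 1.31 to 1.42. Its step was 0.63 (SE 0.063, limma adjusted p = 7.49e-05). The level thus rose by 4.37 FPKM over the first 50 µg/ml and by 3.43 over the second. SLC3A2, the heavy chain that carries this exchanger to the membrane, rose over both steps as well, with 99.5 to 107 FPKM at 50 and 128 to 130 at 100 µg/ml, from 86.5 to 90.2 untreated, with an increment of 15.6 FPKM first and 24.6 second and a step of 0.31 (SE 0.048, adjusted p = 0.00492). For GCLM, the modifier subunit of the ligase that starts glutathione synthesis, the libraries read 11.7, 12.1 and 13.1 at 50 and 16.7, 16.4 and 16.7 at 100 µg/ml, a step of 0.42 (SE 0.061, adjusted p = 0.00209). The catalytic subunit GCLC, by contrast, had a step of 0.06 (adjusted p = 0.877), at 11.8 and 12.3 FPKM; whether the subunits differ was not tested. GSR, which reduces glutathione disulfide and was named after its values were seen, went from 19.8 ± 0.48 to 24.1 ± 0.64 FPKM (step 0.27, adjusted p = 0.00146).

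In the thioredoxin system the reductase and sulfiredoxin rose. TXNRD1, thioredoxin reductase, read 229, 224 and 227 FPKM at 50 and 279, 288 and 297 at 100 µg/ml, from 114 to 127 untreated, with a step of 0.34 (SE 0.040, adjusted p = 0.000334). SRXN1, which repairs overoxidized peroxiredoxins and was named after its values were seen, went from 33.0 to 35.0 FPKM up to 40.2 to 44.4, a step of 0.30 (adjusted p = 0.00146). Thioredoxin itself, TXN, had 633 and 712 FPKM and did not pass (step 0.17, adjusted p = 0.361), and PRDX1, a peroxiredoxin, missed narrowly at 373 and 431 FPKM (step 0.21, adjusted p = 0.0531). Of the enzymes that supply NADPH, TALDO1, transaldolase, rose from 266.8 ± 5.0 to 305.5 ± 5.3 FPKM (step 0.20, adjusted p = 0.0108; named after its values were seen), a call lost without library 2 or 3 at 50 or 3 at 100 µg/ml (adjusted p up to 0.0835). PGD, TKT and ME1 did not pass, with steps of 0.12, 0.09 and 0.05, though each had a called high-dose rise. ME1, malic enzyme, was nearest to a plateau among them, at 1.71, 2.69 and 2.81 FPKM at 0, 50 and 100 µg/ml.

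Quinone and electrophile genes rose as well, 4 of them with a called step. NQO1, the NAD(P)H quinone dehydrogenase (chromosome 16, 69709401 to 69726560), read 147, 141 and 132 FPKM at 50 and 186, 181 and 172 at 100 µg/ml, all well above the 59.8 to 63.6 of untreated libraries. It rose over the step by 0.36 (SE 0.043, adjusted p = 0.000365), after a first rise of 1.17 between 0 and 50 µg/ml. In FPKM the increments were 78.2 and then 39.2, so that 66.6% of the rise at 100 µg/ml was reached at 50. UGDH, which makes the sugar donor for glucuronidation, went from 31.9 to 33.9 FPKM up to 39.5 to 40.5 (step 0.29, SE 0.033, adjusted p = 0.000306). OSGIN1, a gene induced by oxidative stress, kept nearly equal increments and stood at 7.93 to 8.69 and then 12.8 to 14.0 FPKM (step 0.65, SE 0.078, adjusted p = 0.000342). TRIM16, a ubiquitin ligase family member, went from 12.3 to 13.3 FPKM up to 16.2 to 19.1 (step 0.46, adjusted p = 0.000478), and its close copy TRIM16L from 11.6 to 15.2 (step 0.37, adjusted p = 0.0913). Reads of this pair are uncertain, since near-identical copies can share them.

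The difference between the 2 steps was tested directly for every gene, as the second step minus the first on the log2 scale. It was called below 0 in 6 genes (0.0508%) and above 0 in 6 (0.0508%), with 1009 genes at an unadjusted p under 0.05. The 6 below were SLC7A11 (-1.11, limma adjusted p = 9.38e-05), NQO1 (-0.81, adjusted p = 7.24e-05), GCLM (-0.70, adjusted p = 0.0110), TXNRD1 (-0.58, adjusted p = 0.00122), UGDH (-0.42, adjusted p = 0.00386) and CPT1A (-0.50, adjusted p = 0.0470). For the first 5 the second step was smaller but still called; CPT1A, the outer carnitine palmitoyltransferase that admits fatty acids to mitochondria, was the only one of the 6 without a called step. CPT1A, named after its values were seen, had 4.64, 4.99 and 4.88 FPKM at 50 and 5.59, 5.58 and 5.54 at 100 µg/ml, from 2.81 ± 0.097 untreated, with 73.4% of the change reached at 50. Equal increments in FPKM bring smaller and smaller differences on a log2 scale, so the test says only that log2 steps were unequal. On the linear scale, the 26 continued rises had reached a median of 54.5% of their change at 50 µg/ml, between 29.2% in ANGPTL4 and 66.6% in NQO1, where 50% stands for equal increments. These 26 were chosen by a called second step, which favours low shares, so this median does not stand for all responding rises. The difference stayed called for SLC7A11, NQO1 and TXNRD1 in every setting run. It was lost for UGDH without library 2 at 50 µg/ml (adjusted p = 0.0583), for GCLM without library 2 or 3 at 50 (adjusted p = 0.0674 and 0.0959) and for CPT1A without any 1 of the 9 libraries at 0, 50 and 100 µg/ml (adjusted p up to 0.323), so that library 2 at 50 µg/ml left 3 genes below 0 when it was removed.

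Of 21 tested heme and iron genes 4 rose (19.0%, against 0.237% of all genes) and 0 fell, with a median step of 0.008 over the list. HMOX1 and FTL among the 4 are also NRF2 targets, counted above. HMOX1, heme oxygenase 1 (chromosome 22, 35381096 to 35394207), read 23.0, 23.0 and 26.2 FPKM at 50 and 42.7, 41.3 and 46.4 at 100 µg/ml, while libraries from 0 to 10 µg/ml stayed between 8.03 and 10.4. The step was 0.84 (SE 0.068, adjusted p = 6.25e-06), and the increment of 19.4 FPKM was larger in value than that of 14.9 over the first 50 µg/ml. FTL, the ferritin light chain that stores iron, had 2780 to 3112 FPKM at 50 and 3682 to 4036 at 100 µg/ml (step 0.37, SE 0.052, adjusted p = 0.00146); its processed gene copies make the assignment of its reads uncertain. The heavy chain FTH1 was listed at 2.61 and 2.59 FPKM, a low level for a ferritin gene with many near-identical copies, and its step of -0.05 had an interval from -0.63 to 0.54. TFRC, the transferrin receptor for iron uptake, went from 77.2 ± 0.70 to 94.2 ± 3.7 FPKM (step 0.29, adjusted p = 0.0303). It lost its call without any 1 of the 6 libraries at 50 and 100 µg/ml, with an adjusted p of up to 0.174. ALAS1, the first enzyme of heme synthesis, read 25.2 to 27.9 and 31.0 to 31.8 FPKM (step 0.23, adjusted p = 0.0103), and 38.0% of its change was reached at 50 µg/ml. Its call was lost without library 1 or 2 at 50 or 2 at 100 µg/ml, with an adjusted p of up to 0.0666. BLVRB, a biliverdin reductase, had 41.1 and 48.9 FPKM and did not pass (adjusted p = 0.0913).

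**Figure D2:**
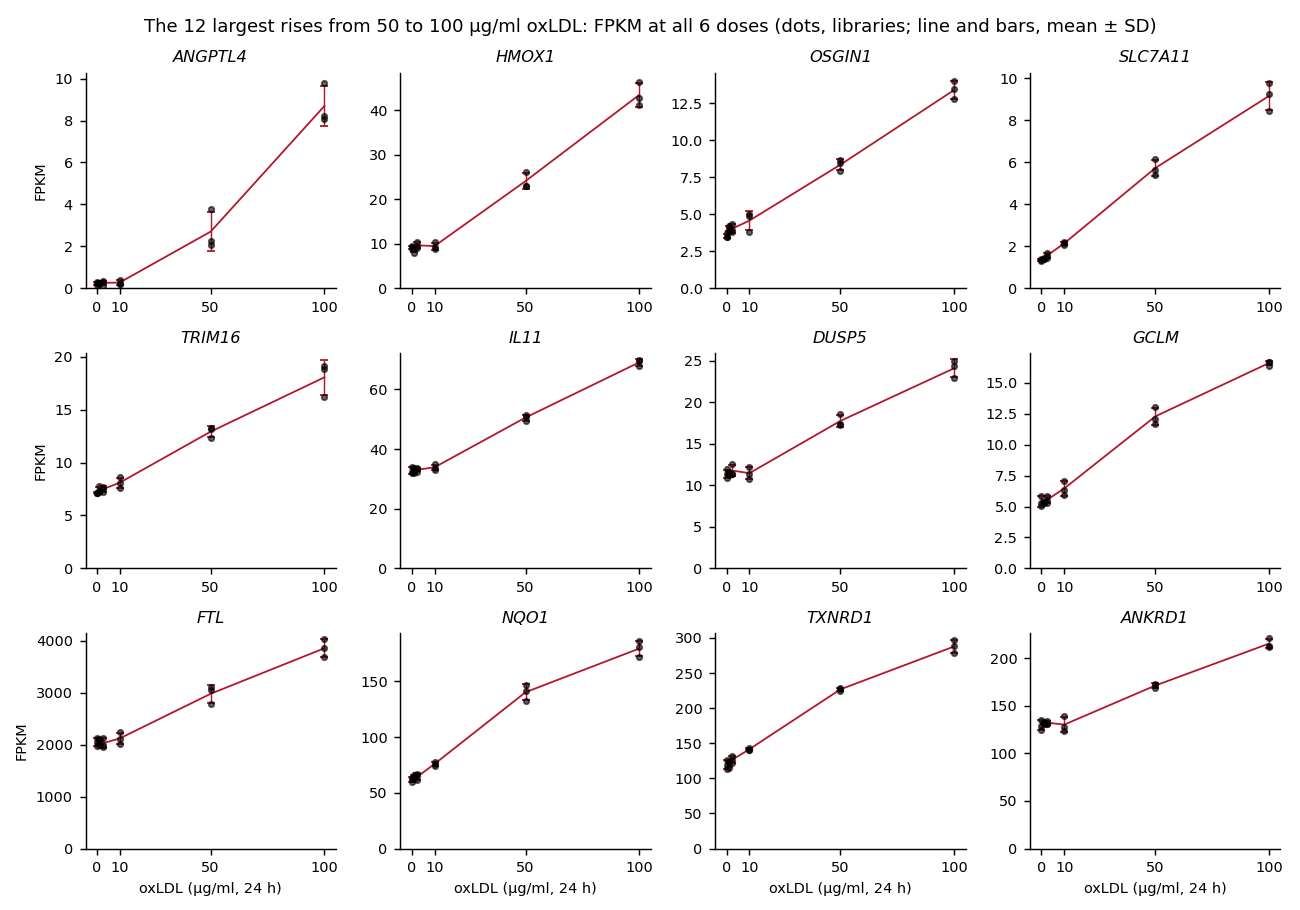
FPKM (vertical, from 0) against oxLDL dose in µg/ml (horizontal, linear) for the 12 largest called rises from 50 to 100 µg/ml; dots are libraries, lines join dose means and bars are SD over 3 libraries. From 10 µg/ml on the lines are near straight for IL11, DUSP5 and OSGIN1, bend upward for ANGPTL4 (2.70 to 8.70 FPKM over the step) and bend downward for NQO1 and GCLM.

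ANGPTL4 had the largest step of all called genes. It encodes a secreted inhibitor of lipoprotein lipase induced through PPAR factors (chromosome 19, 8364155 to 8374370). At 50 µg/ml its libraries read 2.08, 2.25 and 3.77 FPKM and at 100 µg/ml 8.23, 8.08 and 9.77, against 0.149 to 0.303 untreated. The groups did not overlap, although the third library at 50 µg/ml stood above the other 2. Its step was 1.55 (SE 0.16, adjusted p = 0.000109), and its increments of 2.48 and 5.99 FPKM mean that 29.2% of the rise was reached at 50 µg/ml. PLIN2, the coat protein of lipid droplets, read 31.5 to 33.8 and then 38.9 to 40.5 FPKM (step 0.27, SE 0.042, adjusted p = 0.00363), with the smaller increment second. These were the only called members among 26 PPAR and fatty acid oxidation genes (7.69%, against 0.237% of all genes). That list had medians of 0.0011 over the step and 0.0445 for the high-dose response. Among 19 lipid droplet genes PLIN2 alone was called (5.26%). G0S2, an inhibitor of lipid droplet lipolysis, had 7.16 and 10.4 FPKM (step 0.51, adjusted p = 0.117). ACADVL, an enzyme of long-chain oxidation, had 84.8 and 95.9 (step 0.18, adjusted p = 0.117), and it overlaps DLG4 on the opposite strand.

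Lysosomal and autophagy genes changed singly. Among 44 lysosomal genes 2 rose (4.55%, against 0.237% of all genes) and 0 fell, with a median step of 0.03. CTSL, cathepsin L, read 47.5, 43.3 and 46.5 FPKM at 50 and 54.6, 53.6 and 56.4 at 100 µg/ml (step 0.26, SE 0.041, adjusted p = 0.00493). GLA, the alpha-galactosidase of glycolipid breakdown, read 28.5, 28.1 and 30.2 and then 36.4, 32.7 and 35.0 (step 0.26, adjusted p = 0.0108); it lost its call without library 1 or 2 at 50 or 1 or 3 at 100 µg/ml, with an adjusted p of up to 0.0897. ATP6V0B, a subunit of the lysosomal proton pump, had 60.5 and 69.3 FPKM (adjusted p = 0.0686). The autophagy gene GABARAPL1 was the only gene called over the step without a called high-dose response: it had 15.6 ± 0.045 FPKM untreated, 14.9 ± 0.59 at 50 and 18.3 ± 0.75 at 100 µg/ml (step 0.28, adjusted p = 0.0232). Its call was lost without library 1 or 3 at either dose, with an adjusted p of up to 0.155. MAP1LC3B, a related protein of the autophagosome membrane, had 56.6 and 61.6 FPKM (adjusted p = 0.235).

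IL11 gave the smallest p-value of the comparison. This cytokine of the gp130 family (chromosome 19, 55364382 to 55370463) read 50.9, 49.4 and 51.3 FPKM at 50 and 69.6, 69.7 and 67.8 at 100 µg/ml, from 32.0 to 34.0 untreated. The step was 0.45 (SE 0.031, adjusted p = 1.17e-06), and the increments of 17.8 and 18.5 FPKM were nearly equal. It was the only called member among 21 cytokine and chemokine genes of the NF-kB list (4.76%, against 0.237% of all genes). There CXCL8 and CXCL1 had steps of 0.27 and 0.19 (limma adjusted p = 0.632 and 0.762). DUSP5, a phosphatase of nuclear ERK, read 17.4, 17.3 and 18.7 and then 22.9, 25.1 and 24.4 FPKM (step 0.43, SE 0.052, adjusted p = 0.000342), with increments of 6.36 and 6.35. Its list of ERK feedback genes had 1 of 16 called (6.25%, against 0.237% of all genes) and a median step of 0.12. The step lay above 0 in 14 of the 16, against 46.9% of all genes tested. All 11 members with a called high-dose rise had a further upward step, against 80.8% of all genes with such a rise. DUSP6 had 3.99 and 5.11 FPKM (adjusted p = 0.208) and DUSP4 7.10 and 8.39 (adjusted p = 0.342), neither passing.

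Among YAP and SRF targets 2 of 26 rose (7.69%, against 0.237% of all genes). CCN2, a matricellular growth factor, read 267, 276 and 276 FPKM at 50 and 342, 346 and 327 at 100 µg/ml (step 0.31, SE 0.040, adjusted p = 0.000666). ANKRD1, a muscle ankyrin repeat protein and common YAP reporter, read 169, 173 and 172 and then 212, 221 and 213 (step 0.33, SE 0.038, adjusted p = 0.000308). AJUBA of the same list pointed the other way at 41.9 and 36.4 FPKM (adjusted p = 0.290), and 10 of the 26 lay below 0. Outside the fixed lists, and named after their values were seen, PPIF (mitochondrial cyclophilin D) rose from 217.1 ± 2.3 to 255.6 ± 0.25 FPKM (adjusted p = 0.000666) and UCHL1, a deubiquitinase, from 465 ± 3.4 to 536 ± 11 (adjusted p = 0.00601). ODC1, the first enzyme of polyamine synthesis, went from 85.3 ± 2.7 to 95.5 ± 3.3 FPKM (adjusted p = 0.0489), and this call was lost without library 2 or 3 at 50, 2 or 3 at 100, or 1 or 3 at 0 µg/ml, with an adjusted p of up to 0.255.

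**Figure D3:**
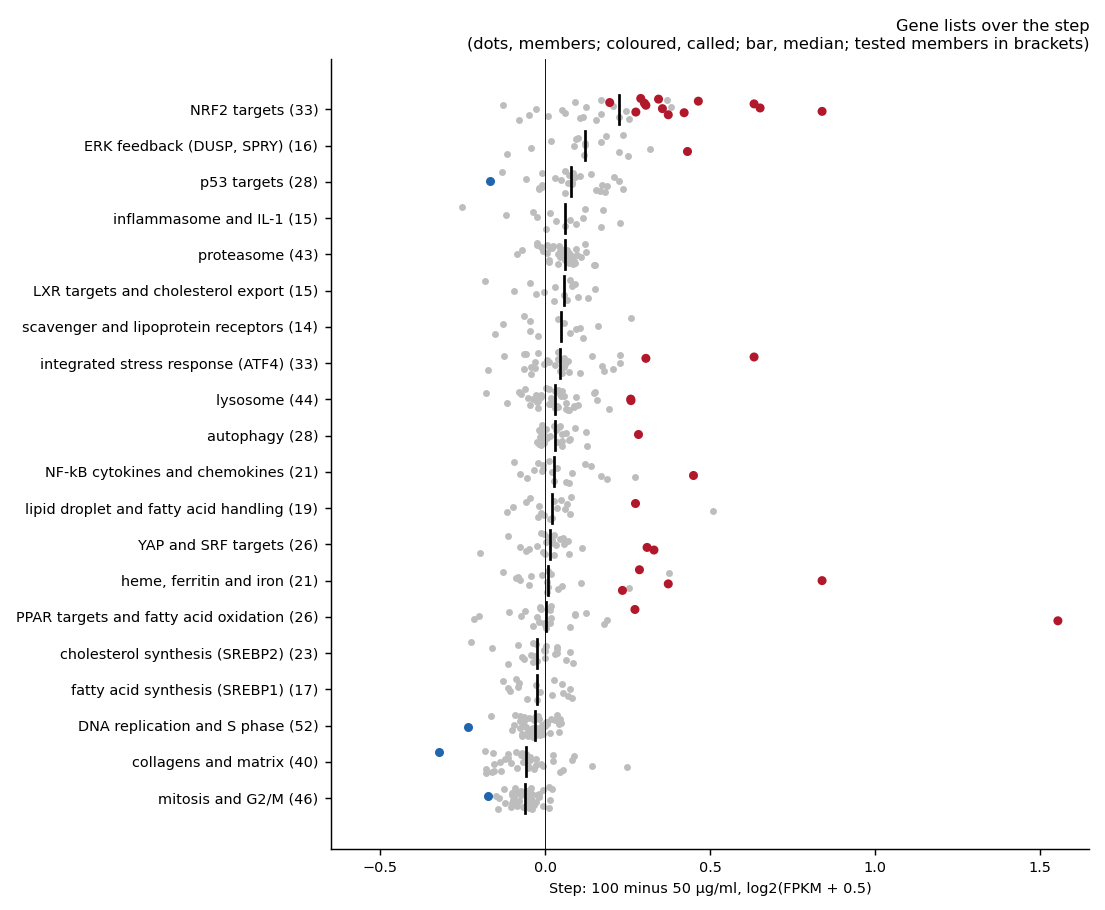
The log2 difference between 100 and 50 µg/ml for the tested members of 20 gene lists; each dot is a gene, coloured where called (red higher, blue lower), and the bar is the list's median. NRF2 targets (median 0.22, 13 called) stand farthest to the right, while cholesterol synthesis (median -0.02, 0 called) and mitosis (median -0.06, 1 called) lie at or below 0.

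The 8 falls had steps from -0.40 to -0.17 and belonged to no single list. TINAGL1, a secreted matrix protein (chromosome 1, 31576515 to 31587686), read 21.2, 21.1 and 21.1 FPKM at 50 and 17.3, 17.9 and 15.3 at 100 µg/ml, from 36.8 to 38.2 untreated. Its step was -0.32 (SE 0.052, adjusted p = 0.00531), and the second decrement of 4.30 FPKM followed a first of 16.3; the log2 steps differed as well (0.49, adjusted p = 0.0484), a difference lost without any 1 of the 9 libraries at 0, 50 and 100 µg/ml but library 3 at 100 (adjusted p up to 0.255). RUNX2, a transcription factor of bone and cartilage, read 2.81, 3.18 and 2.81 and then 2.23, 2.41 and 2.11 (step -0.32, adjusted p = 0.0232), and the Wnt ligand WNT7B 0.646, 0.711 and 0.619 and then 0.399, 0.383 and 0.348 (step -0.40, adjusted p = 0.0286). The size for WNT7B, a gene of low level, came to -0.78 by limma-voom on recovered reads, -0.67 with a pseudocount of 0.1 and -0.27 with 1 (adjusted p = 0.0636, not called). WNT7B and the noncoding LINC01109, which went from 22.5 ± 0.88 to 19.2 ± 0.51 (step -0.23, adjusted p = 0.00696), were named after their values were seen. PLK2, a p53-responsive kinase, had 204.3 ± 4.6 and 181.7 ± 1.9 FPKM (step -0.17, adjusted p = 0.0489), pointing opposite to CDKN1A of the same list at 58.1 ± 1.8 and 68.5 ± 1.0 (step 0.24, adjusted p = 0.117). Falls were the less stable calls: 8 became 2 without library 2 at 50 µg/ml, 4 without library 3 at 100, and 5 without library 3 at 50 or without library 1 at 100. TINAGL1 held the call of its step without each single library, RUNX2 lost it without library 2 at 50 or 1 or 3 at 100 (adjusted p up to 0.195) and LINC01109 without library 2 at either dose (adjusted p up to 0.0636). WNT7B lost it without any 1 of the 6 libraries (adjusted p between 0.0686 and 0.2), and PLK2 also without library 1 or 2 at 0 µg/ml (adjusted p up to 0.287). Fitted on the 6 libraries alone, none of the 8 falls was called.

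Of the 8 falls 3 were genes of replication and division. MCM7, a subunit of the replicative helicase, read 144, 137 and 135 FPKM at 50 and 120, 119 and 114 at 100 µg/ml, from 172 to 181 untreated (step -0.23, SE 0.032, adjusted p = 0.00145). DONSON, a replication initiation and fork factor, went from 44.0 ± 1.2 to 39.1 ± 1.6 (adjusted p = 0.0211; named with the falls) and KIF20A, a kinesin of cytokinesis, from 84.8 to 87.2 FPKM down to 75.7 to 76.7 (step -0.17, SE 0.029, adjusted p = 0.00755). KIF20A lost its call without library 2 at 50 µg/ml (adjusted p = 0.0522) and DONSON without library 2 or 3 at 50 or 1 or 3 at 100 (adjusted p up to 0.174). MCM7 overlaps AP4M1, DONSON overlaps SON and KIF20A overlaps CDC23 on the opposite strand, and as strand was not marked by the kit, reads of such pairs cannot be told apart. In the mitosis list 1 of 46 fell (2.17%, against 0.0677% of all genes) and 42 lay below 0, against 53.1% of all genes tested. The median step was -0.06. Of the 46, 15 had an unadjusted limma p under 0.05 downward (3.99% of all genes) and 0 upward. A high-dose fall was called in 7 of the 46 and a rise in 0, against 7.95% and 8.58% of all genes. For KIF20A 37.5% of the fall was reached at 50 µg/ml. In the list of S phase genes 1 of 52 fell (1.92%, against 0.0677% of all genes), 39 lay below 0 (against 53.1% of all genes) and the median was -0.03. In that of collagens and matrix 1 of 40 fell (2.5%), 32 lay below 0 and the median was -0.06. A high-dose fall was called in 18 of these 40 and a rise in 3, against 7.95% and 8.58% of all genes.

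Cholesterol synthesis genes fell at the high doses, and none had a called step. Of 23 tested genes of the SREBP2 list 18 had a called fall at the high doses, against 7.95% of all genes tested. The median high-dose response was -0.30 over the list. Over the step 0 rose and 0 fell by limma (0.237% and 0.0677% of all genes), and 0 also by limma-voom. An unadjusted limma p under 0.05 was reached by 3, all lower, against 3.99% of all genes. The median step was -0.02. Among the 18 responding genes the step came to a median of 0.102 of the high-dose response, against 0.237 for all falling genes. It pointed further down in 12 of the 18, against 75.2% of all genes with a called fall. Of the 18, 5 are termed levelled, against 8.52% of all falling responses, and 13 were undetermined. INSIG1, which retains SREBP2 in the endoplasmic reticulum, read 16.5 to 18.4 FPKM untreated, 10.3, 10.6 and 9.38 at 50 and 11.3, 10.5 and 9.34 at 100 µg/ml, so that the doses overlapped (step 0.04, 95% interval -0.16 to 0.24). HMGCS1, which makes the precursor of mevalonate, read 6.56, 6.68 and 6.44 and then 6.60, 6.52 and 6.11 FPKM, against 10.3 ± 0.22 untreated (step -0.03, 95% interval -0.20 to 0.14). Of its fall 96.1% was present at 50 µg/ml.

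Along the pathway 5 genes met the bound for levelled, among them INSIG1 and, named after their values were seen, the decarboxylase MVD (18.3 and 18.8 FPKM), the isomerase IDI1 (12.6 and 12.9) and the lanosterol demethylase CYP51A1 (21.7 and 23.0). MSMO1, a sterol oxidase, had 28.1 FPKM untreated and 20.7 and 20.7 at 50 and 100 µg/ml. Genes with the lowest p pointed further down without passing: MVK, mevalonate kinase, had 5.98 and 5.30 FPKM (adjusted p = 0.400), TM7SF2, a sterol reductase, 6.63 and 5.59 (adjusted p = 0.479) and ACAT2, the thiolase that opens the pathway, 52.5 and 48.6 (adjusted p = 0.564). MVK overlaps MMAB, and ACAT2 overlaps TCP1, on the opposite strand. The difference between the 2 steps was not called for any member of the list; INSIG1 came to 0.79 (adjusted p = 0.105) and HMGCS1 to 0.57 (adjusted p = 0.191). No test compared the cholesterol list with the NRF2 list, whose responding genes had a median step of 0.444 of their high-dose response. In the full set 9 of the 23 genes lay above 0. Leaving out single libraries moved this count both ways, to 12 without library 3 at 100 µg/ml and to 6 without library 1 at 100.

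**Figure D4:**
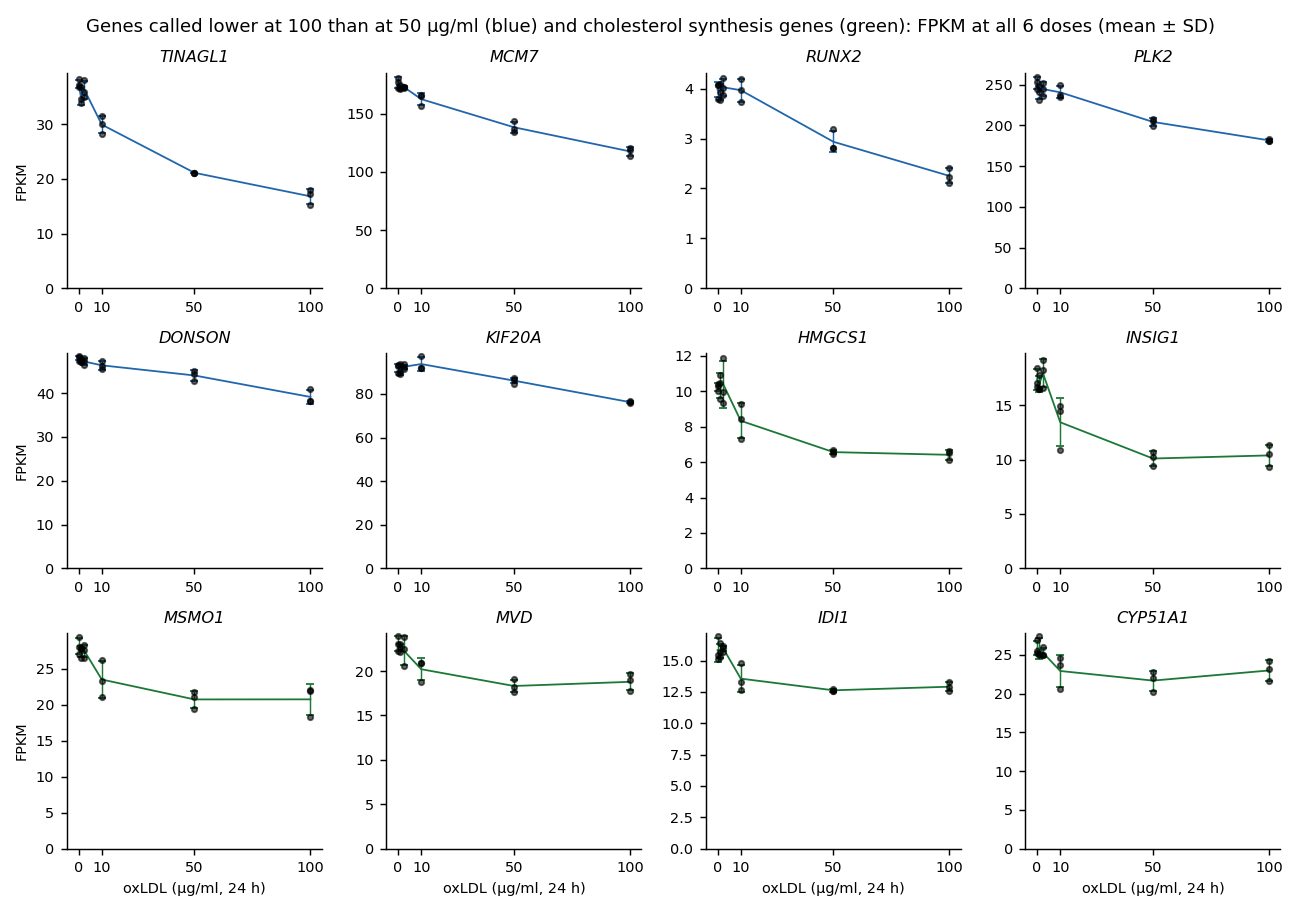
FPKM (vertical, from 0) against oxLDL dose in µg/ml (horizontal, linear) for 6 genes called lower at 100 than at 50 µg/ml (blue) and 6 genes of the SREBP2 list (green); dots are libraries, lines join dose means and bars are SD over 3 libraries. The blue genes, chosen by their called step, go on falling beyond 50 µg/ml. No step was called for the green ones, such as INSIG1 at 10.1 and 10.4 FPKM. The green genes are picked members of a list in which 14 of 23 tested genes lay below 0. MVK, TM7SF2 and ACAT2, which pointed further down, are not shown.

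A return toward the untreated level was called in 1 gene. METTL26, a methyltransferase-like gene named after its values were seen, read 51.6 to 51.9 FPKM untreated, 46.5, 45.0 and 45.0 at 50 and 53.2, 50.1 and 50.5 at 100 µg/ml (step 0.17, SE 0.033, adjusted p = 0.0350). Its call was lost without any 1 of the 9 libraries at 0, 50 and 100 µg/ml, with an adjusted p of up to 0.208. The second step exceeded the first in METTL26, TINAGL1 and 4 more genes named after their values were seen: GALT, the transferase of galactose metabolism, had 13.02, 10.8 and 12.3 FPKM at 0, 50 and 100 µg/ml, and COX20, a cytochrome oxidase assembly factor, 23.1, 19.1 and 20.7. PGGHG, a glucosidase of hydroxylysine glycosides, had 3.57, 2.29 and 2.93 and LINC00513 2.02, 1.24 and 1.59. In these 4 the step itself was not called. Leaving out single libraries kept 1 to 4 of these 6 differences: 1 without any library at 50 or library 1 or 2 at 0 µg/ml, 2 without library 3 at 0 or library 1 at 100, and 4 without library 2 or 3 at 100. Nearly all levelled falls, 79 of 80, had a step above 0, and all 28 levelled rises one below 0, so the bound was met mostly by genes whose values pointed back. Their median step came to -0.389 of the response for the rises and -0.494 for the falls. An unadjusted limma p under 0.05 against the direction of the response was reached by 2 of the 28 rises and 27 of the 80 falls. Being chosen by their step favours such values, so the term levelled does not mean that a flat step was shown. The levelled rises included the transcription factor CEBPD, at 1.47, 2.31 and 2.21 FPKM at 0, 50 and 100 µg/ml, and LOX, the collagen cross-linking oxidase, at 23.5, 30.5 and 29.8, both named after their values were seen.

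Several of the largest responses could not be placed, because their libraries spread widely. MMP1, interstitial collagenase, read 50.5, 47.0 and 69.8 FPKM at 50 and 45.5, 48.4 and 91.1 at 100 µg/ml, from 21.9 ± 4.4 untreated, and the interval of its step ran from -0.67 to 0.85 (adjusted p = 0.975). SERPINE2, a protease inhibitor, had 57.7 ± 6.8 and 71.1 ± 11 FPKM (step 0.30, adjusted p = 0.661), and MMP3, stromelysin, 0.761 ± 0.32 and 1.36 ± 0.37 (step 0.57, adjusted p = 0.285). Large falls were similar. OLR1, the lectin-like oxLDL receptor, read 1.38, 1.38 and 0.888 and then 0.909, 1.33 and 0.952 FPKM, against 2.93 ± 0.49 untreated (step -0.13, 95% interval -0.54 to 0.28). EGR1 (4.90 ± 0.84 and 4.16 ± 0.68), NPPB (35.1 ± 5.2 and 33.6 ± 6.6), MDGA1 (4.25 ± 0.47 and 3.34 ± 0.49), MIR503HG (10.1 ± 1.4 and 8.48 ± 0.65), ELF3 (0.763 ± 0.19 and 0.477 ± 0.18) and CRISPLD2 (1.86 ± 0.23 and 1.54 ± 0.35) were also not called. MEGF6 had 1.35 ± 0.094 and 1.36 ± 0.055 FPKM, with a step of 0.005 and an interval from -0.25 to 0.26 that was too wide to meet the bound.

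Genes of the pathway in the series' title showed no called step. IL1B had 1.86 ± 0.064 FPKM at 50 and 1.99 ± 0.15 at 100 µg/ml, with overlapping libraries (step 0.08, 95% interval -0.15 to 0.30, adjusted p = 0.924). NLRP3 was below the level set for testing, at 0.366 ± 0.052 and 0.308 ± 0.12 FPKM. IL18 had 16.1 and 19.1 FPKM (step 0.23, adjusted p = 0.489), and among 15 inflammasome and IL-1 genes 0 were called by limma, with adjusted p of 0.342 or more. The CD36 receptor, one of the genes fixed to be named, had no value and was not analysed here. TLR4 had the smallest p among 14 scavenger and lipoprotein receptors, at 1.16 and 1.49 FPKM (step 0.26, adjusted p = 0.235). For ABCA1, the cholesterol exporter, the values were 0.731 ± 0.070 and 0.753 ± 0.052 (adjusted p = 0.966).

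Stress and translation genes gave small or single changes. In the ATF4 list of 33 genes the 2 rises (6.06%, against 0.237% of all genes) were SLC7A11 and SLC3A2, which are also NRF2 targets. By limma TRIB3 (12.4 and 14.5 FPKM, adjusted p = 0.0725), PPP1R15A (57.0 and 66.9, adjusted p = 0.0949) and DDIT3 (15.9 and 18.4, adjusted p = 0.206) did not pass. ATF3 had 3.01 and 3.27 and CHAC1 3.86 and 3.37. None of the 22 heat shock and chaperone genes was called over the step, where 0.237% of all genes were called higher. At the high doses 14 of the 22 were called higher, against 8.58% of all genes. The responding members had a median step of 0.167 of the response, against 0.277 for all rising genes. Of 43 proteasome genes 0 were called and 37 lay above 0, as did 46.9% of all genes tested, with a median step of 0.06. Ribosomal protein genes (68 of 77 above 0, median 0.05) and nuclear respiratory chain genes (56 of 69 above 0, median 0.06) had 0 called as well, and their medians came to 0.02 and 0.03 without library 3 at 50 µg/ml.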

How the data were processed

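The deposited table holds FPKM values that the authors computed per gene symbol for each library; the tools are HISAT2 2.0.5, featureCounts and DESeq2 and the build hg38 per the submitters' processing notes, which give no roles, and the annotation release is not given in the sources used here. Whole reads could be recovered from the steps of the FPKM values for 13992 of 13992 genes (100% within 0.05 reads), which gave the depths quoted; intervals from counting would cover counting error only. Columns were matched to samples by title, and 0 other columns of values were present.

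Values were log2(FPKM + 0.5), and limma 3.58.1 (run in R 4.3.3) fitted a mean for each dose, leaving 12 residual degrees of freedom, with eBayes and its variance trend. Tests were two-sided, adjusted by Benjamini-Hochberg over all 11813 genes per contrast. Levels in FPKM are per length and per library total, with no further scaling. The fit was tested on simulated data with known changes.

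The comparison, gene lists and members were chosen with earlier results of these data known. Genes named are the largest called rises and falls, up to 12 each way (mean of 1 FPKM or more, no overlap between the doses). Only 8 falls were called. Also named are the 10 largest high-dose rises and falls, up to 3 members of each list with the smallest adjusted p, and 24 fixed names. Others are stated to be named after their values were seen. List members quoted beside these were also picked then. Some genes that this rule covers are not reported here. Lists are described by counts and medians, without a set test, to be read against the shares of all genes called higher and lower. Coordinates and promoter windows are from RefSeq GRCh38.p14. Other pseudocounts, filters, sample sets, scalings, a replicate block, limma-voom on recovered reads and leaving out single libraries were tried.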

Additional observations from a re-analysis of the deposited data

How the results depend on the processing

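Of the 36 calls, 19 held in all 20 other settings of the step fit and 0 changed sign; 23 held in all but the fit of the 6 libraries alone. That fit called 25 rises and 0 falls, not all of them among the 36, of which it kept 21. The 9 libraries at 0, 50 and 100 µg/ml gave 4 falls, all 4 continued, and 10 second steps above the first. Limma-voom on recovered reads gave 47 rises, 44 continued rises, and 17 second steps above and 13 below the first. Second steps above the first numbered 3 with no filter, 2 with median-ratio scaling and 3 without the variance trend. Against 0, 1 and 2.5 µg/ml pooled, the high-dose response called 1640 genes higher and 1640 lower, with 50 levelled rises; a bound of 0.5 gave 136 levelled rises and 193 levelled falls. The causes were not tested. Leaving out single libraries gave 22 to 30 rises and 2 to 8 falls over the step, 618 to 981 high-dose rises and 531 to 879 falls, 21 to 28 continued rises and 2 to 8 continued falls, 12 to 64 levelled rises and 47 to 97 levelled falls, and 1 to 4 second steps above and 3 to 7 below the first. Fewest high-dose calls came without library 1 at 0 µg/ml, and 653 rises without library 3 there. The replicate numbers share no stated source: same-numbered libraries at 50 and 100 µg/ml correlated by 0.16, 0.068 and 0.15 in their deviations, each best with its own number, a hint from the data and not the design. With the replicate block 30 genes rose and 9 fell, and 35 of the 36 calls were kept. At the median SE the 95% half-width of a step was 0.131; this SE holds the spread between libraries besides depth, and libraries of 1 dose differed by 2.29 to 5.78 times counting noise (chi-square per gene).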
